A study of Mus musculus with 26 samples.

Results

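The genes that write, copy and remove DNA methylation were followed through the making of mouse primordial germ cell-like cells and in the testis, with the level of Tex10 lowered or raised. The set was chosen by gene name, with earlier results of these data known. It holds Dnmt3a, Dnmt3b and Dnmt3l (new methylation), Dnmt1 and Uhrf1 (copying of methylation at replication), and Tet1, Tet2, Tet3 and Tdg (removal). These are 9 of 54589 distinct gene symbols in the 3 deposited tables, and all 9 passed the filter on low values (a mean of at least 1 over the libraries of a table) in every table.

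The data are bulk RNA-seq of 26 libraries in 3 experiments. In the degron experiment (10 libraries, 129Sv/J cells), 2 libraries came from untreated epiblast-like cells (EpiLCs), the starting state, and 2 each from primordial germ cell-like cells (PGCLCs) at day 2 and day 4 of induction with the solvent DMSO or with 500 nM dTAG13, a small molecule that sends a tagged protein to breakdown. The treated cells are the Tex10-depleted arm, the clone that carries the tag is not named in the labels, and untagged cells given dTAG13 were not analysed here. In the overexpression experiment (12 libraries, 129Sv/J cells), 1 empty-vector line and 2 Tex10 overexpression clones gave 1 library each in the EpiLC state and on days 2, 4 and 6 of induction. The testis experiment compared 2 Tex10 conditional knockout (cKO) and 2 wild-type testes of C57BL/6N mice, and the Cre driver and the age are not given. The labels do not say whether numbered replicates were separate cultures, so p-values for the cells may measure technical spread only.

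Mammalian DNA is methylated mainly at CpG dinucleotides. DNMT3A and DNMT3B place new marks with the help of DNMT3L, which has no catalytic activity of its own, while UHRF1 brings DNMT1 to half-methylated DNA behind the replication fork. TET proteins oxidise the mark, TDG cuts out the oxidised base, and marks that are not copied are diluted as cells divide. Primordial germ cells lose most of their methylation genome-wide, and repression of the new-methylation enzymes and of Uhrf1 belongs to that reprogramming. RNA levels were measured here, not methylation, and in bulk RNA fewer cells of a type and less RNA per cell cannot be told apart.

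Values are CPM (read counts relative to library size) scaled by the authors with TMM (trimmed mean of M values), called scaled CPM. Libraries held between 5055362 and 8564563 reads in genes (degron), 5227287 and 7484600 (overexpression) and 6058987 and 7272313 (testis), and 3 reads were worth 0.299 to 0.56 scaled CPM. Differences are on the log2(scaled CPM + 1) scale, which understates changes of low genes, and a gene is called when limma's Benjamini-Hochberg adjusted p over all genes of the comparison is below 0.05. The replicates that differed most were the day 4 DMSO libraries (chi-square per gene 15.07, against 1.83 to 8.07 for the other pairs). In day 4 DMSO replicate 2 the value of 1 read (0.0996) cannot be told apart from rounding. The 15.07 and the 0.299 are therefore uncertain. Of the 8 PGC markers, 6 were higher at day 2 than in EpiLCs in both cell experiments, and 6 of 7 EpiLC markers were lower. The PGC gene Dppa3 stayed between 0.291 and 5.15 in all PGCLC libraries.

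Tex10 RNA followed the design where RNA can show it. In EpiLCs it was 213.5 in the empty-vector line against 394 and 385 in the clones. At days 2, 4 and 6 it was 161, 147 and 145, against 330 to 654 in the clones. It was called in the comparison of clones with vector (log2 difference 1.47 ± 0.11 (SE), adjusted p = 2.14e-11 with limma). That p-value takes the stages of a line as replicates. In testis Tex10 RNA was 79.1 and 44.1 in wild type and 29.8 and 27.3 in cKO (log2 -1.03 ± 0.21, adjusted p = 0.00318). dTAG13 acts on protein, so Tex10 RNA is no check of depletion. At day 4 it was nevertheless lower with dTAG13 (76.9 and 72.8) than with DMSO (110 and 105), a log2 difference of -0.51 ± 0.11 (adjusted p = 0.000576 with limma). The authors' deposited table gives -0.52 for it with an adjusted p of 0.0818, which does not pass 0.05.

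The promoter windows of the 3 new-methylation genes and of Tet2 are shown because, of the 9 members, these genes differed most from EpiLC at day 4 in the degron control cells and at days 2 and 6 in the overexpression lines. At day 2 in the degron control cells Uhrf1 (log2 -0.98) and Tet3 (-0.97) differed about as much as Tet2 (0.98). Each is RefSeq sequence of build GRCm38.p6 from 250 bases before to 50 after an annotated start, 5′ to 3′ on the gene's strand, with CpG dinucleotides in capitals. Dnmt3a has 3 windows in the table and Dnmt3l has 3; one is shown for each.
Dnmt3a, chr12:3806730-3807029, plus strand: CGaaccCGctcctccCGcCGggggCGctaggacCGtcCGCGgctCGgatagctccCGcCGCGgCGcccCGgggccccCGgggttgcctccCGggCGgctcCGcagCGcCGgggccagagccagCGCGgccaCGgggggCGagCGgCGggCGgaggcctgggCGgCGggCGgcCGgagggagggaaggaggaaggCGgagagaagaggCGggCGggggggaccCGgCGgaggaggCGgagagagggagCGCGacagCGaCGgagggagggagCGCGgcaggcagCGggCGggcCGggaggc
Dnmt3b, chr2:153649199-153649498, plus strand: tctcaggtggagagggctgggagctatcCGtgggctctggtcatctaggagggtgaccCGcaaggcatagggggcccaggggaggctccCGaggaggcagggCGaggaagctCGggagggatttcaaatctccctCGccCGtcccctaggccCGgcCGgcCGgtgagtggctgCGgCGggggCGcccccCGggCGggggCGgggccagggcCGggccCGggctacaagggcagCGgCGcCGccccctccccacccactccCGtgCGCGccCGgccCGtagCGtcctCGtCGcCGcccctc
Dnmt3l, chr10:78042037-78042336, plus strand: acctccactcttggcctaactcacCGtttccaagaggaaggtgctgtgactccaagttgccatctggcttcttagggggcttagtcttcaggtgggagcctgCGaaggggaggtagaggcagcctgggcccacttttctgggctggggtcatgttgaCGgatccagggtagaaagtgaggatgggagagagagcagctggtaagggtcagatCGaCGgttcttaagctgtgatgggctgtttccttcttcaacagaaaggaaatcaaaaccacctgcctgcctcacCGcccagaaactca
Tet2, chr3:133544341-133544640, minus strand: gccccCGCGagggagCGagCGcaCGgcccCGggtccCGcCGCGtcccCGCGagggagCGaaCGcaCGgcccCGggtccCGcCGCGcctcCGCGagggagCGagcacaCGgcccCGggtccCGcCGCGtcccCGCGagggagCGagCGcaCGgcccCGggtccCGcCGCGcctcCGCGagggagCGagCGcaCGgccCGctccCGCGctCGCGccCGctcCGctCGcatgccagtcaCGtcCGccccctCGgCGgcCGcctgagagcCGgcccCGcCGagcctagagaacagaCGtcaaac
The Dnmt3a window held 46 CpG, the Dnmt3b window 30, the Dnmt3l window 6 and the Tet2 window 57. The median of 32851 such windows of all genes was 7 (quartiles 3 and 20). The shown windows of Tet2, which rose on induction, and of Dnmt3a and Dnmt3b, which fell, were above the upper quartile, while that of Dnmt3l, which fell as far at day 2, was near the median. Of the other Dnmt3a windows, the one at chr12:3806910-3807209, which overlaps the one shown, held 47 CpG. The one at chr12:3891494-3891793 held 18, inside the quartiles. The other Dnmt3l windows, at chr10:78049592-78049891 and chr10:78055085-78055384, held 4 and 3. Which of the annotated starts these cells used was not measured, so a window shown may not be the one in use.

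Levels per kilobase of exon (GENCODE basic annotation of GRCm38) put the members in a different order before and after induction. In EpiLCs of the degron experiment the order was Tet1 (165 scaled CPM per kb), Dnmt3b (164), Uhrf1 (108), Dnmt3a (81.6), Dnmt3l (51.6), Dnmt1 (32.1), Tet2 (31.0), Tet3 (7.62) and Tdg (3.46). The libraries of Tet1 and Dnmt3b overlapped, as did those of Dnmt1 and Tet2. In day 4 DMSO cells the order was Tet1 (164), Tet2 (81.0), Uhrf1 (55.9), Dnmt1 (28.3), Dnmt3b (11.9), Dnmt3a (10.2), Tdg (4.71), Tet3 (3.80) and Dnmt3l (3.69), and of neighbours in this order Tet3 and Dnmt3l overlapped. Tdg is placed by its own reads alone, which were 22% and 15.8% of the sum with its copies in EpiLCs, so its place is uncertain. Dnmt3b thus moved from level with Tet1 to below Dnmt1, and Tet2 from level with Dnmt1 to second.

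Induction in control cells lowered all 3 new-methylation genes. Between EpiLC and day 2 with DMSO, 1 of 9 members was higher and 6 lower, where 26.2% of the 16605 genes tested were called (11.5% higher, 14.7% lower). The members' median log2 difference was -0.97, against -0.03 over all genes.

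Dnmt3a, a catalytic enzyme, stood at 771 and 848 in EpiLCs, 126 and 136 at day 2 and 101 and 101 at day 4. Every PGCLC library was below every EpiLC library, and the log2 difference was -2.62 ± 0.10 at day 2 (6.15-fold, adjusted p = 7.32e-14 with limma) and -2.99 ± 0.10 at day 4 (adjusted p = 4.47e-15). The step from day 2 to day 4 was small (log2 -0.37 ± 0.10, adjusted p = 0.0366) and was called in 7 of 14 alternative analyses. Leaving out any 1 of the 4 libraries ended that call, with adjusted p up to 0.27 over the alternatives, while the difference itself stayed between -0.43 and -0.32.

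Dnmt3b, the second catalytic enzyme, stood at 628 and 794 in EpiLCs, 106 and 136 at day 2 and 46.2 and 57.0 at day 4. The groups did not overlap at either step. Its log2 difference from EpiLC was -2.55 ± 0.14 at day 2 (adjusted p = 1.97e-11 with limma) and -3.76 ± 0.14 at day 4 (13.5-fold, adjusted p = 1.51e-14), and the day 4 level was 7.25% of that in EpiLCs.

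Dnmt3l, the cofactor, had 135 and 141 in EpiLCs, 21.5 and 21.3 at day 2 and 8.06 and 11.7 at day 4. It fell at both steps, by 2.63 ± 0.16 and then by 1.07 ± 0.16 on the log2 scale (adjusted p = 4.73e-11 and 0.000136 with limma). From day 2 to day 4, 1 of 9 members was higher and 3 were lower, where 5.52% of genes were called (2.44% higher, 3.08% lower); the 3 were the new-methylation genes.

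The copying genes fell less. Uhrf1 stood at 369 and 424 in EpiLCs, 208 and 193 at day 2 and 196 and 214 at day 4. It was about level between the days at 50.5% and 51.7% of the EpiLC mean, and the fall to day 2 was 0.98 ± 0.10 on the log2 scale (adjusted p = 2.94e-07 with limma). Dnmt1, the copying enzyme itself, had 193.5 and 211 in EpiLCs, 154 and 166 at day 2, and 151 and 206 at day 4. The day 4 libraries spanned most of the range of the other groups. Its day 2 difference passed narrowly (log2 -0.34 ± 0.12, adjusted p = 0.0436 with limma) and was called in only 3 of 14 alternatives (adjusted p 0.0134 to 0.456). In the authors' deposited table its adjusted p is 0.896, which does not pass 0.05.

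Of the erasers, Tet1 was high throughout, Tet2 rose and Tet3 fell. Tet1, the main TET enzyme of pluripotent cells, had 2352 and 2398 in EpiLCs, 2249 and 2203 at day 2 and 2189 and 2524 at day 4. Its difference from EpiLC was not called at either day (log2 -0.09 ± 0.11 and -0.02 ± 0.11). Tet2 had 316 and 255 in EpiLCs, 583 and 536 at day 2 and 721 and 770 at day 4. No libraries overlapped between stages, and the rise to day 4 was 1.39 ± 0.11 on the log2 scale (2.62-fold, adjusted p = 2.13e-09 with limma). Its second step alone (0.41 ± 0.11, adjusted p = 0.0278) was called in 6 of 14 alternatives, with a difference of 0.35 to 0.51 in all of them. Tet3 went from 85.1 and 93.8 to 40.4 and 50.6 at day 2 and to 42.5 and 46.7 at day 4. The fall to day 2 was 0.97 ± 0.13 on the log2 scale (adjusted p = 1.07e-05). From EpiLC to day 4, 1 member was higher and 5 lower (34.9% of all genes called, 16.8% higher and 18.1% lower).

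Tdg, the glycosylase, cannot be read safely. Its values were 10.5 to 17.6 in the degron table and 3.08 to 6.55 in the overexpression table, while a near-identical pseudogene copy, Tdg-ps2, had 18.5 to 55.7 and 52.8 to 125. Tdg itself took 15.8% to 42.2% of the summed copies in one table and 3.41% to 9.22% in the other. The call turned with the counting: Tdg alone was not called from EpiLC to day 4 (log2 0.43 ± 0.22, adjusted p = 0.132), whereas the sum of the copies was lower (-0.60, adjusted p = 0.00275 with limma). The sum, and not Tdg alone, was also lower with dTAG13 at day 2 (-0.42, adjusted p = 0.0309) and, in the overexpression lines, from EpiLC to day 2 (-0.75, adjusted p = 1.64e-07) and to day 6 (-0.74, adjusted p = 1.19e-07). How reads were shared between the copies is not known, and Tdg is left out of the statements that follow unless named.

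**Figure D1:**
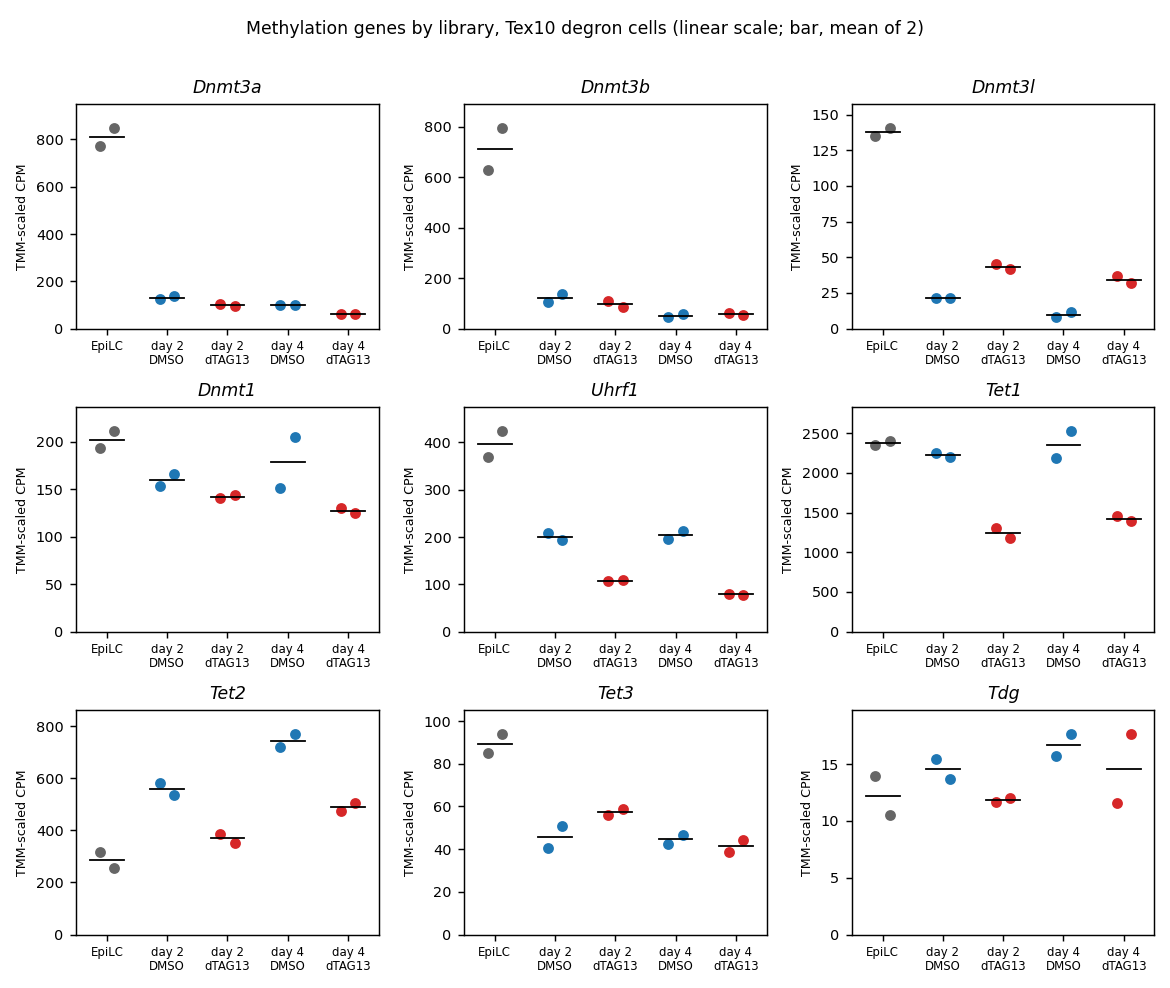
Scaled CPM (linear axis from 0) of the 9 methylation genes in the 10 degron libraries. Each point is 1 library and each bar the mean of 2; grey marks EpiLC, blue DMSO and red dTAG13. The 3 new-methylation genes drop at day 2 in both arms. Dnmt3a, Uhrf1, Tet1 and Tet2 were called lower with dTAG13 at both days, and Dnmt3l higher.

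dTAG13 changed the members in opposite directions. At day 2, 1 of 9 members was higher with dTAG13 and 4 lower, where 33.6% of genes were called (13.7% higher, 19.9% lower). At day 4, 1 was higher and 5 lower, where 41.8% were called (15.8% higher, 26% lower). These shares are high, so the counts alone say little about the members. All genes together were lower with dTAG13 (median log2 -0.09 at day 2 and -0.13 at day 4), and another scaling (median of ratios) moved these medians to 0.00 and -0.02. Of all genes called, 40.7% and 37.8% were higher at day 2 and day 4 with the deposited scaling, and 53.4% and 50.2% with the other. Called differences are therefore also given relative to the median of all genes.

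Uhrf1 showed the largest fall among the members at day 4. At day 2 its fall was about level with that of Tet1 (log2 -0.85 ± 0.11). Uhrf1 had 107 and 109 at day 2 with dTAG13, against 208 and 193 with DMSO. At day 4 it had 80.1 and 78.0, against 196 and 214. The groups were far apart on both days. The log2 difference was -0.89 ± 0.10 at day 2 (adjusted p = 1.06e-06 with limma) and -1.36 ± 0.10 at day 4 (2.57-fold, adjusted p = 9.27e-10), or -0.80 and -1.23 relative to the median of all genes. With dTAG13, Uhrf1 was down to 20% of the EpiLC mean at day 4, where the control cells kept 51.7%.

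Dnmt1, its partner at the replication fork, had 130 and 125 at day 4 with dTAG13 against 151 and 206 with DMSO. The log2 difference was -0.47 ± 0.12 (adjusted p = 0.00364 with limma), or -0.33 relative to the median of all genes. The call was lost without the higher DMSO library (-0.25, adjusted p = 0.0808) and with no variance trend, and held in 12 of 14 alternatives. At day 2 (141 and 144 against 154 and 166) Dnmt1 was not called (log2 -0.17 ± 0.12).

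Some windows of both copying genes held the core of the site bound by E2F factors, which drive genes of DNA replication. A window of each gene is shown because it held that core, with the letters TTTNNCGC on either strand in capitals. Both genes were lower with dTAG13 at day 4. Dnmt3a (log2 -0.67), Tet1 (-0.73) and Tet2 (-0.60) were lower there too, each by more than Dnmt1 (-0.47), and their windows held no match. A link between these letters and the dTAG13 differences was not tested.
Uhrf1, chr17:56304063-56304362, plus strand: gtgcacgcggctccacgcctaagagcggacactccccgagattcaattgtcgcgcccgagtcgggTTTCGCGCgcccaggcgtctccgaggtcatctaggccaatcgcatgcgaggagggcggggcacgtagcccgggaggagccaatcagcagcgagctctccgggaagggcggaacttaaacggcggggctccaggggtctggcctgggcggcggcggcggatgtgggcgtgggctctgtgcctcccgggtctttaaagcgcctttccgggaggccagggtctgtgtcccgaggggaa
Dnmt1, chr9:20952574-20952873, minus strand: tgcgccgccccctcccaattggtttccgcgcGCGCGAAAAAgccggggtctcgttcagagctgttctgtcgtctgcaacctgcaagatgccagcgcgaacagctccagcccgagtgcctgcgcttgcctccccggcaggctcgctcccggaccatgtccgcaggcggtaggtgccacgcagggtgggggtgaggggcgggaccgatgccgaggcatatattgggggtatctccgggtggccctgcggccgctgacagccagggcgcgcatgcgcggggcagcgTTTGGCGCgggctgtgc
The Uhrf1 window held 1 match and the Dnmt1 window 3, of which those that share bases appear as one run. A second Uhrf1 window, at chr17:56303087-56303386, held 1, and the other 2 Dnmt1 windows, at chr9:20959839-20960138 and chr9:20952930-20953229, held 0. Of all 32851 windows 5.17% held the letters, and none of the windows of the other 7 members did. The letters contain a CpG, and the windows shown held 33 CpG each, where the median of all windows was 7. The share among windows so rich in CpG is not given here. The E2F letters were 1 of 4 motifs searched on both strands. The CCAAT box (CCAAT, 37.4% of all windows) was in windows of Tet3, Dnmt1, Tdg and Uhrf1. The TFAP2 letters (GCCNNNGGC, 16.6%) were in windows of Dnmt1, Tdg and Dnmt3a, and the PRDM1 core (GAAAGT, 14.3%) in 1 window each of Dnmt3l and Uhrf1. A match is a run of letters and no evidence of binding.

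The cell cycle list was also lower with dTAG13. Of its 15 genes, 13 were lower with dTAG13 at day 2 and 15 at day 4 (median log2 -0.66 and -0.79), and none was higher. Their summed level was 3009 to 3017 with DMSO and 1939 to 1969 with dTAG13 at day 2, and 2807 to 3069 against 1775 to 1837 at day 4. The replication clamp Pcna, among the pathway partners, was 54.8 and 45.9 with DMSO and 20.7 and 20.02 with dTAG13 at day 4 (log2 -1.26 ± 0.14, adjusted p = 2.46e-07 with limma). From EpiLC to day 2 in control cells, 14 of the 15 were lower as well. Over that step in the overexpression lines, 12 were lower and 1 higher (median log2 -0.37). There Uhrf1 was lower (log2 -0.59) and Dnmt1 was not called (0.11). The part of cell division in the levels of Uhrf1 and Dnmt1 was not tested.

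Dnmt3l was the member that was higher with dTAG13 on both days. It had 45.2 and 41.6 at day 2 with dTAG13, against 21.5 and 21.3 with DMSO, and 36.8 and 31.9 at day 4, against 8.06 and 11.7. Every treated library was above every control library of its day. The log2 difference was 0.99 ± 0.16 at day 2 (adjusted p = 4.62e-05 with limma) and 1.72 ± 0.16 at day 4 (3.3-fold, adjusted p = 1.35e-08), or 1.08 and 1.85 relative to the median of all genes. In 14 alternatives a day it stayed called, between 0.927 and 1.121 and between 1.48 and 1.963. It nonetheless fell from EpiLC in treated cells too, to 31.5% of the EpiLC mean at day 2 and 25% at day 4, against 15.5% and 7.15% with DMSO. The Dnmt3l locus overlaps Aire, and whether counting used strand is not given in the sources used here.

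Dnmt3a was lower with dTAG13 and Dnmt3b was not called. Dnmt3a had 105 and 93.6 at day 2 against 126 and 136, and 62.5 and 63.1 at day 4 against 101 and 101. The groups did not overlap, with log2 differences of -0.40 ± 0.10 (adjusted p = 0.00524 with limma) and -0.67 ± 0.10 (adjusted p = 1.94e-05), or -0.31 and -0.54 relative to the median of all genes. The day 2 call was lost without DMSO replicate 2 or dTAG13 replicate 2 (log2 -0.34 and -0.32), and the day 4 call held in every alternative. Dnmt3b had 108 and 87.2 at day 2 against 106 and 136, and 60.7 and 53.4 at day 4 against 46.2 and 57.0. Its groups overlapped on both days, and its log2 differences were -0.30 ± 0.14 (adjusted p = 0.116) and 0.15 ± 0.14 (adjusted p = 0.437). At day 2 it was called without DMSO replicate 1 (-0.48, adjusted p = 0.0433).

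Tet1 and Tet2 were lower with dTAG13 on both days. Tet1 had 1302 and 1176 at day 2 against 2249 and 2203, and 1457 and 1387 at day 4 against 2189 and 2524. The fall was 0.85 ± 0.11 and 0.73 ± 0.11 on the log2 scale (adjusted p = 5.46e-06 and 2.07e-05 with limma), from a level that control cells had held since EpiLC. Relative to the median of all genes the Tet1 differences were -0.76 and -0.59 and those of Tet2 -0.51 and -0.47. Tet2 had 387 and 354 at day 2 against 583 and 536, and 473 and 507 at day 4 against 721 and 770. It fell by 0.60 ± 0.11 on both days (adjusted p = 0.000249 and 0.000139) but was still at 130% and 172% of the EpiLC mean, where control cells reached 196% and 261%. The authors' deposited table has nearly the same log2 differences with larger adjusted p-values: 0.219 and 0.168 for Tet2, 0.357 for Dnmt3a at day 2 and 0.281 for Dnmt1 at day 4, none of which passes 0.05. For Tet1 (0.0101 and 0.0292), Uhrf1 (0.000446 and 1.63e-09), Dnmt3l (0.000862 and 8.44e-11) and Dnmt3a at day 4 (0.011) the authors' deposited table does pass it.

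Tet3 gave no steady answer. It had 55.8 and 58.6 at day 2 with dTAG13, above the 40.4 and 50.6 with DMSO. At day 4 it had 38.7 and 44.5, which overlapped the 42.5 and 46.7 with DMSO. The day 2 difference (log2 0.33 ± 0.13, adjusted p = 0.0602 with limma) was called in 6 of 14 alternatives, among them the median of ratios scaling (0.43) and the fit with a replicate block. The genes of its chromosome moved the other way at day 2: the 730 tested on chromosome 6 had a median of -0.35, against -0.09 on the other autosomes, and its 20 nearest tested neighbours -0.49.

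No member's response was called different between the days. The test of day 4 against day 2 responses called 0 of 9 members, and 1.25% of genes (0.771% higher, 0.482% lower). An unadjusted p under 0.05 was reached by 2013 genes. The largest estimates were Dnmt3l (0.73 ± 0.22, adjusted p = 0.121 with limma) and Uhrf1 (-0.47 ± 0.15, adjusted p = 0.137). Dnmt3l was called without day 4 DMSO replicate 2 (0.98, adjusted p = 0.011), and edgeR and DESeq2 called no member.

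**Figure D2:**
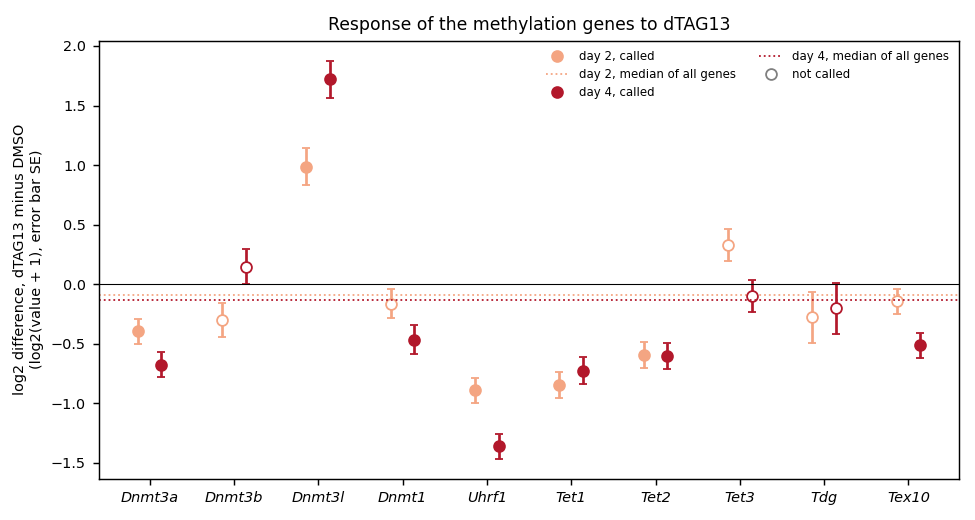
Log2 difference (dTAG13 minus DMSO, log2(scaled CPM + 1), error bars SE) for the 9 members and Tex10 at day 2 (light) and day 4 (dark). Filled points were called, open points not, and dotted lines mark the median of all genes (-0.09 and -0.13). Dnmt3l lies at 0.99 and 1.72 and Uhrf1 at -0.89 and -1.36.

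The other genes of the methylation pathway moved in both directions. Of 47 partner genes (readers, regulators, repair enzymes and methyl donor genes), 45 were tested, and with dTAG13 6 were higher and 17 lower at day 2 (median log2 -0.27) and 9 higher and 19 lower at day 4 (median -0.22). Prdm14, a germ cell factor that represses the new-methylation genes, had 36.5 and 34.6 with DMSO and 9.48 and 8.29 with dTAG13 at day 2, and 49.0 and 44.2 against 13.1 and 7.95 at day 4. Its log2 differences were -1.89 ± 0.21 and -2.08 ± 0.21 (adjusted p = 5.4e-07 and 6.25e-08 with limma). The dTAG13 values lay nearer to the 8.87 and 6.65 of EpiLCs than the DMSO values did. Ung, a uracil glycosylase of base excision repair, was 88.3 and 110 with DMSO and 47.9 and 53.2 with dTAG13 at day 2 (log2 -0.95 ± 0.12, adjusted p = 2.84e-06). In control cells from day 2 to day 4, Zfp57 was higher (0.64 ± 0.11) and Zbtb33, a methyl-CpG reader, lower (-0.46 ± 0.14).

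Gadd45g and Gadd45b, of a stress-linked family, and a methyl-CpG reader were among those that rose. Gadd45g had 11.6 and 8.01 with DMSO and 24.4 and 30.0 with dTAG13 at day 2, and 2.69 and 1.10 against 12.2 and 15.6 at day 4 (log2 1.40 ± 0.25 and 2.41 ± 0.25, adjusted p = 0.000171 and 9.29e-08 with limma). In control cells it was down from 42.1 and 36.6 in EpiLCs. Gadd45b was 14.4 and 10.8 with DMSO and 32.0 and 44.7 with dTAG13 at day 4 (log2 1.53 ± 0.23, adjusted p = 1.51e-05). The third gene of the family, Gadd45a, added after its values were seen, was lower at day 2 (19.9 and 28.4 against 33.2 and 32.8, log2 -0.46 ± 0.16, adjusted p = 0.0302) and higher at day 4 (37.4 and 45.6 against 29.3 and 30.3, log2 0.46 ± 0.16, adjusted p = 0.0247). Zbtb4, a zinc-finger protein that binds methylated DNA, went from 3.40 and 5.84 to 18.2 and 14.1 at day 2 (log2 1.63 ± 0.27, adjusted p = 6.77e-05).

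Germline genes known to be silenced by promoter methylation showed no common direction. Of 18 such genes 16 were tested; 3 were higher and 2 lower with dTAG13 at day 2, and 3 higher and 5 lower at day 4 (medians 0.04 and -0.11). Tuba3a, a testis alpha-tubulin gene, rose in control cells from 10.01 and 13.07 to 23.0 and 23.1 and then to 48.1 and 41.2, but stood at 6.06 and 6.69 and at 4.99 and 10.01 with dTAG13 (log2 -1.71 ± 0.24 and -2.49 ± 0.24, adjusted p = 9.18e-06 and 2.57e-08 with limma). Hormad1, a meiotic axis gene, was higher with dTAG13 at day 4 (21.1 and 22.9 against 7.09 and 6.77, log2 1.54 ± 0.24, adjusted p = 2.63e-05). Dazl, a germ cell RNA-binding protein, was 41.7 and 36.2 against 25.02 and 20.41 at day 4 (log2 0.76 ± 0.19, adjusted p = 0.00303). Rpl10l was lower at day 2 (log2 -0.76 ± 0.13). Mov10l1, a piRNA pathway helicase, was higher at day 2 than in EpiLCs in control cells (0.98 ± 0.28) and lower with dTAG13 at day 4 (-1.06 ± 0.28).

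Cell identity markers moved with dTAG13 as well. Of the 8 PGC markers, 4 were lower and 1 (Tfap2c) higher on each day, and 3 of 5 tested mesoderm and endoderm markers were higher and none lower. The summed level of all 11 mesoderm and endoderm markers was 23.0 to 25.9 with DMSO and 56.6 to 64.6 with dTAG13 at day 2, and 25.5 to 25.8 against 67.3 to 76.8 at day 4. Foxa2 was at 0 in the day 2 DMSO libraries, Hoxb1 in the day 4 DMSO libraries and T in the day 4 dTAG13 libraries. Of 7 EpiLC markers, 1 was higher (Pou3f1) and 2 lower (Pou5f1 and Sox3) at day 2, and 3 were higher (Pou3f1, Lef1 and Sall2) and 1 lower (Pou5f1) at day 4. Their summed level was lower with dTAG13 on both days, at 275 to 308 against 378 to 410.3 at day 2 and 253.1 to 253.4 against 343 to 394 at day 4. Of 4 X chromosome dosage genes, Xist was higher and Tsix and Klhl13 lower on each day, and Dusp9 was not called. The X-inactivation RNA Xist was 129 and 138 in EpiLCs, 5.41 and 5.02 with DMSO and 250 and 253 with dTAG13 at day 2. The part of cell identity in the members' differences was not tested.

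**Figure D3:**
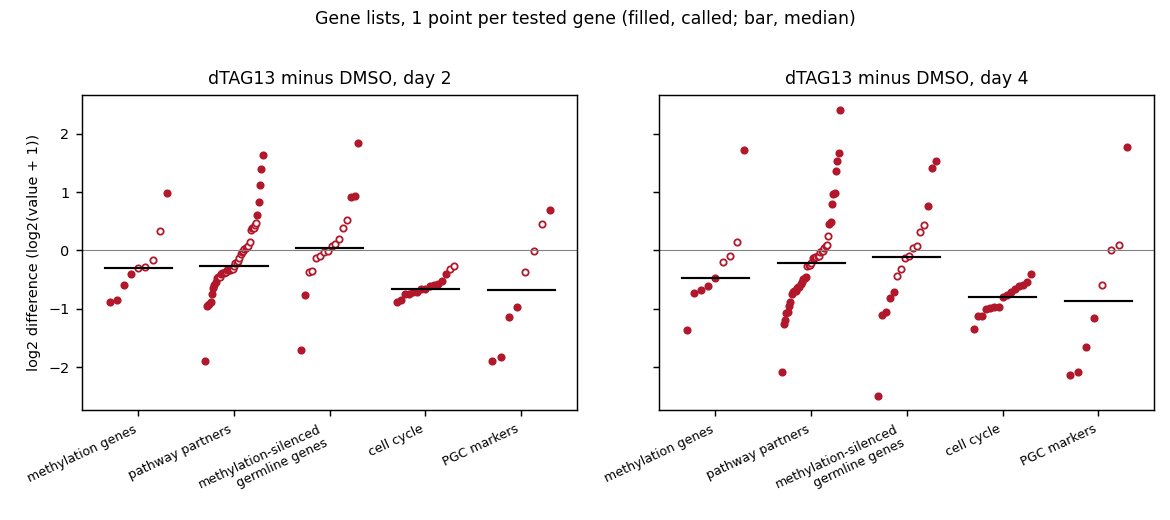
Log2 difference (dTAG13 minus DMSO) of each tested gene of 5 lists at day 2 (left) and day 4 (right). Points are genes in order of size, filled when called, and bars are list medians. The cell cycle genes all lie below 0, while the methylation genes and their partners lie on both sides.

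The overexpression experiment gave a longer course, to day 6, with another library kit. Between EpiLC and day 2, 2 of 9 members were higher and 4 lower (46.3% of 15255 genes called, 24.1% higher and 22.1% lower). By day 6 the counts were again 2 and 4 (54.1%, 27.6% higher and 26.5% lower). Each fit of stages had the line as a block. The EpiLC and day 2 levels cannot be set beside the degron table, since the tables were scaled separately.

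Dnmt3b fell furthest by day 6. It was 1196, 1220 and 1261 in the EpiLCs of the vector line, clone 1 and clone 2, then 275, 200 and 180 at day 2, 83.2, 76.7 and 73.0 at day 4, and 70.8, 69.2 and 56.2 at day 6. Each line was lower at every later stage. The difference from EpiLC to day 6 was -4.22 ± 0.09 (18.6-fold, adjusted p = 9.27e-25 with limma), and the last step alone was not called (-0.25 ± 0.09, adjusted p = 0.104).

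Dnmt3a reached its lowest level at day 4 and then turned. In the same order of lines it was 934, 861 and 868 in EpiLCs, 191, 130 and 133.5 at day 2, 136, 96.4 and 107 at day 4 and 173, 154 and 166 at day 6. All 3 lines were higher at day 6 than at day 4 (log2 0.54 ± 0.08, adjusted p = 0.000103 with limma). From day 4 to day 6, 2 of 9 members were higher and none lower, where 6.88% of genes were called (3.49% higher, 3.38% lower).

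Dnmt3l, the other of these 2, fell most steeply at day 2 and then came back. It was 159, 118 and 124 in EpiLCs, 15.1, 7.09 and 6.21 at day 2, 15.0, 21.6 and 24.3 at day 4 and 45.8, 39.6 and 39.8 at day 6. The return began at day 4 in both clones and at day 6 in the vector line, and at day 6 the lines stood at 28.7%, 33.4% and 32.1% of their EpiLC level. The day 2 difference was -3.77 ± 0.19 (13.7-fold, adjusted p = 5.72e-16 with limma), and the steps to day 4 and day 6 were 1.10 ± 0.19 (adjusted p = 8.06e-05) and 1.03 ± 0.19 (adjusted p = 0.000749). Over the same days 2 to 4 the DMSO cells of the degron experiment went from 21.5 and 21.3 to 8.06 and 11.7. From day 2 to day 4, 2 of 9 members were higher and 2 lower (23% of genes called, 11.1% higher and 11.9% lower). Over that step 5 of 7 tested mesoderm and endoderm markers were higher and none lower (median log2 0.99), and the summed level of all 11 went from 44.3 to 84.9 in the vector line and from 22.3 to 27.3 up to 40.1 to 52.3 in the clones. Their part in the Dnmt3l values was not tested.

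The other members repeated or departed from the degron control course as follows. Tet2 rose from 91.3, 71.0 and 76.4 to 566, 637 and 596 at day 2 and to 975, 952 and 965 at day 6. All lines climbed at every step, the day 6 difference was 3.59 ± 0.08 (12.1-fold, adjusted p = 1.53e-24 with limma), and the vector line reached 1070% of its EpiLC level. Tet1 went from 1375, 1196 and 1249 to 1906, 1709 and 1464 at day 2 and 1936, 2030 and 1955 at day 6. It rose by 0.41 ± 0.08 at day 2 (adjusted p = 7.46e-05), a step not called in the degron control cells. Uhrf1 went from 410, 424 and 415 to 288, 271 and 269 at day 2 and 265, 301 and 292 at day 6 (log2 -0.54 ± 0.07 from EpiLC, adjusted p = 2.98e-07), so it was lower in all lines at every PGCLC stage. Dnmt1 stayed between 133 and 171 in all 12 libraries and was not called at any step. Tet3, at 11.4 to 24.6, was not called at any step either; from EpiLC to day 2 (log2 -0.38 ± 0.17, adjusted p = 0.0712) it was lower in 2 of 3 lines and was called without the vector line (-0.57).

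**Figure D4:**
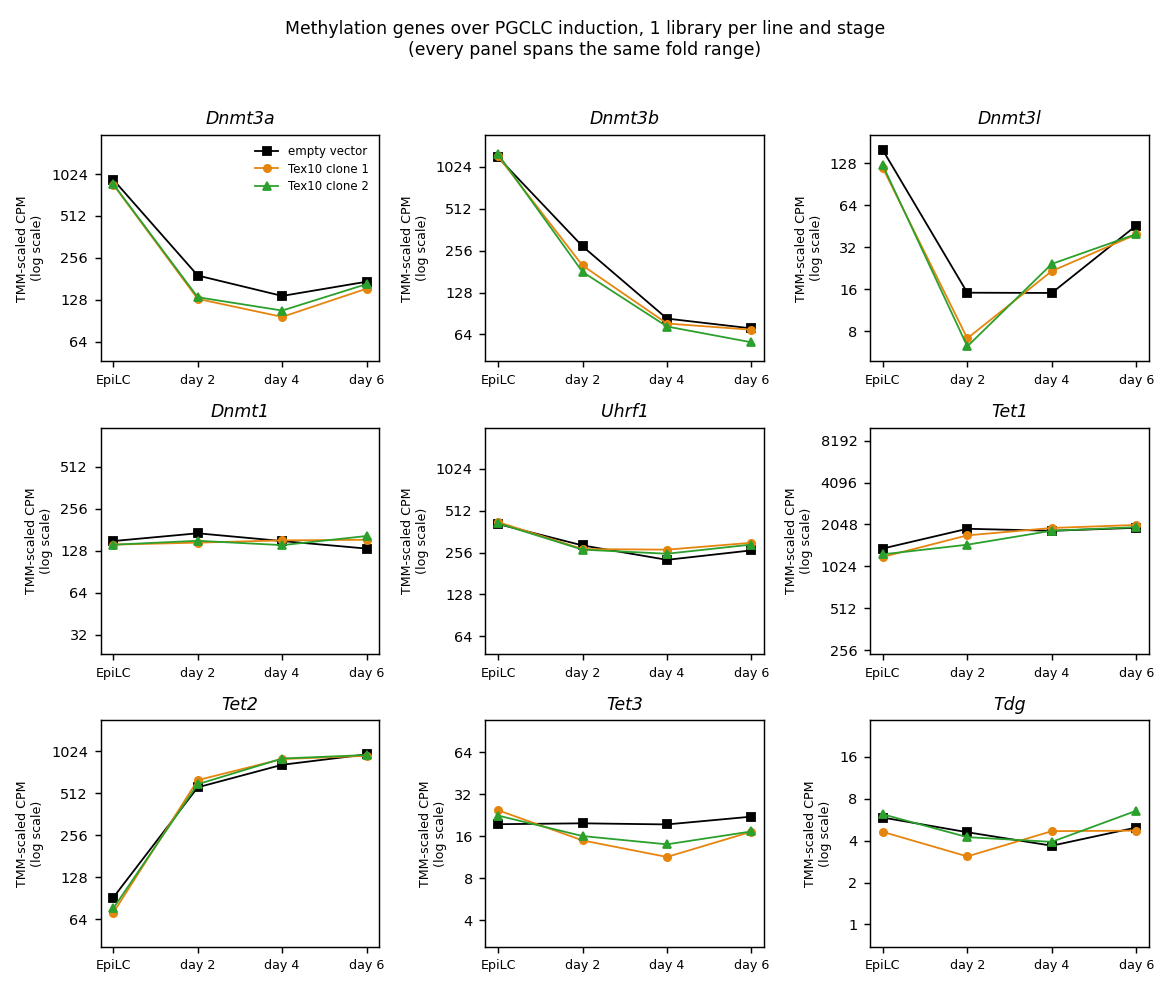
Scaled CPM (log axis, the same fold range in every panel) of the 9 methylation genes at EpiLC, day 2, day 4 and day 6. Each line joins the 4 libraries of the empty-vector line (black) or of a Tex10 clone (orange, green). Dnmt3b is lower at each later stage, Dnmt3a and Dnmt3l turn up by day 6, and Tet2 climbs from at most 91.3 to at least 952.

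Between the Tex10 clones and the vector line, Dnmt3a was the 1 member called. Across the 4 stages, clones against the vector line called 0 of 9 members higher and 1 lower, where 8.76% of genes were called (4.54% higher, 4.22% lower). Dnmt3a was lower in both clones than in the vector line at each stage (861 and 868 against 934 in EpiLCs, 130 and 133.5 against 191 at day 2, 96.4 and 107 against 136 at day 4, 154 and 166 against 173 at day 6). The log2 difference was -0.29 ± 0.06 (adjusted p = 0.00231 with limma), and the call was lost without clone 1 (-0.26) and with no variance trend. The 4 libraries of the vector line and the 4 of each clone stand as replicates in this test, here and for the other genes below, although each set is 1 line sampled at 4 stages, so these p-values do not measure the spread between lines. Of 7 tested mesoderm and endoderm markers, 3 were lower in the clones and none higher (median log2 -0.70). Their summed level (all 11) was 54.2 in the vector line against 49.2 to 54.1 in EpiLCs, 44.3 against 22.3 to 27.3 at day 2, 84.9 against 40.1 to 52.3 at day 4 and 50.9 against 40.8 to 42.0 at day 6. Kdr and Sox17 were at 0 in the day 2 clones, and the part of these markers in the Dnmt3a difference was not tested. The deposited libraries hold 1 vector line, so a difference between that line and the clones cannot be told apart from an effect of Tex10.

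Stage by stage, the clones stood apart from the vector line for several members, with 1 vector library a stage and so no replicate of that arm. Dnmt3l was lower in the clones at day 2 (7.09 and 6.21 against 15.1) and higher at day 4 (21.6 and 24.3 against 15.0). In the authors' deposited table these stage differences are log2 -1.18 and 0.61, and -0.40 in EpiLCs. That table gives -0.27 for Tet1 at day 2 and -0.309 for Tet2 in EpiLCs. For Tet3 it gives 0.27 in EpiLCs and -0.355, -0.623 and -0.356 at days 2, 4 and 6. The adjusted p-values in it are not printed here because they rest on the single vector library. Over all stages Dnmt3l was not called (-0.27 ± 0.14, adjusted p = 0.246 with limma), but was without day 4 (-0.56, adjusted p = 0.00485). Dnmt3b was 200 and 180 against 275 at day 2, log2 -0.53 in the authors' deposited table, and -0.20 ± 0.07 over all stages (adjusted p = 0.0654). Whether the course from EpiLC to day 6 differed between clones and vector was tested for all genes: 0 of 9 members passed, and 0.629% of genes (0.374% higher, 0.256% lower). An unadjusted p under 0.05 was reached by 1516 genes, and edgeR and DESeq2 called no member. The largest member estimates were Tet3 (-0.60 ± 0.31) and Dnmt1 (0.34 ± 0.13). With 1 vector library a stage, the spread in this test came from the clones alone. These counts and SEs hold no measure of spread in the vector line.

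Pathway partners moved in both directions in this experiment. Between EpiLC and day 2, 16 of 45 tested were higher and 16 lower (median log2 -0.08), against 9 higher and 13 lower of 45 in the degron control cells (median -0.02). Prdm14 was 4.06, 2.24 and 1.79 in EpiLCs and 40.5, 50.2 and 45.6 at day 2 (log2 3.70 ± 0.16, adjusted p = 3.04e-17 with limma). Hells, a remodeller needed for methylation of repeats, was 657, 578 and 591 in EpiLCs and 179, 211 and 214.5 at day 6 (log2 -1.59 ± 0.08, adjusted p = 9.59e-16). Cdca7, a partner of Hells, fell from day 2 to day 4 (146, 169 and 158 to 104, 129.5 and 114, log2 -0.45 ± 0.08, adjusted p = 7.23e-05). Tex19.1 fell to day 2 (-1.81 ± 0.19) and rose to day 4 (1.07 ± 0.19), when Zbtb38, a methyl-CpG reader, also rose (0.56 ± 0.10). From day 4 to day 6 Trim28, the corepressor that works with Zfp57, rose (0.27 ± 0.08) and Cxxc5 (-0.38 ± 0.09) and Ogt (-0.32 ± 0.08) fell. Between clones and vector 4 partners were higher and 1 lower; Gadd45a was 31.4 and 33.2 against 16.1 at day 2 (log2 0.66 ± 0.12 over all stages, adjusted p = 0.0003). Apex1, a base excision repair nuclease, was higher too (0.36 ± 0.07), and Mbd1, a methyl-CpG reader, was the lower one (-0.36 ± 0.08, adjusted p = 0.00606).

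Methylation-silenced germline genes were mostly lower at day 2 in this experiment. Between EpiLC and day 2, 1 of 14 tested was higher and 11 lower (median log2 -0.96). In the degron control cells the same step had 2 of 16 higher and 0 lower (median 0.21), and the difference between the experiments was not tested. From day 2 to day 4, 5 were higher and none lower, and from day 4 to day 6, 4 and none. Dazl was 30.3, 22.7 and 24.9 in EpiLCs, 4.74, 12.9 and 8.02 at day 2, 16.1, 46.3 and 37.5 at day 4 and 40.5, 85.3 and 82.6 at day 6. All lines passed through a low at day 2, and the difference from EpiLC to day 6 was 1.32 ± 0.21 (adjusted p = 5.78e-06 with limma). Tuba3a was 19.5, 20.6 and 23.5 in EpiLCs and 42.2, 71.3 and 75.9 at day 6, and was higher in the clones over all stages (0.80 ± 0.12, adjusted p = 4.08e-05). Rpl10l was lower at day 2 (-1.84 ± 0.12) and higher in the clones over all stages (0.54 ± 0.09).

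For each member but Tdg, whose level was too low, the genes with the nearest course over the 12 libraries were found by the root mean square difference of centred log2 profiles, among 11658 genes. They were Sall2, an EpiLC marker, and Jph4 for Dnmt3b (0.18 and 0.29), Zfp981 and Scd1 for Dnmt3a (0.21 and 0.26), and Ttn and Exoc3l for Dnmt3l (0.25 and 0.34). For Tet2 they were Dlgap3 and Epha4 (0.16 and 0.19), and for Tet3 Marcks and 5430416N02Rik (0.11 and 0.12). For the flatter members they were Espl1 for Tet1 (0.058), Gm5648 and Polr3b for Uhrf1 (0.054 and 0.067), and Hnrnph2 and Zwilch for Dnmt1 (0.069 and 0.071).

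In testis, 2 of 9 members were higher and 1 lower in Tex10 cKO, where 29.1% of 20658 genes were called (16.1% higher, 13.1% lower). Dnmt3a was 43.0 and 34.8 in cKO and 15.9 and 15.4 in wild type. The groups were apart, with a log2 difference of 1.25 ± 0.18 (adjusted p = 0.000305 with limma). Tet3, the TET enzyme of the zygote, was 18.5 and 18.4 in cKO and 8.22 and 5.65 in wild type (log2 1.32 ± 0.24, adjusted p = 0.00155).

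Dnmt3l was the member that fell, from 16.3 and 14.4 in wild type to 5.71 and 4.70 in cKO. Its log2 difference was -1.40 ± 0.25 (2.64-fold, adjusted p = 0.00129 with limma). Dnmt3c, named after its values were seen and below the mean of 5 asked of other named partners, is the rodent enzyme that methylates young transposons in the male germline and a near copy of Dnmt3b. It was 3.48 and 2.54 in cKO and 0.342 and 0.785 in wild type (log2 1.36 ± 0.36, adjusted p = 0.0124). The lower wild-type library is below the value of 3 reads (0.514), so the fold depends on few reads, and reads may be split between Dnmt3c and Dnmt3b.

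The other members were not called. Tet2 was 6.83 and 6.10 in cKO against 2.91 and 3.45, just short of the threshold (log2 0.84 ± 0.30, adjusted p = 0.0516 with limma), and was called in 2 of 12 alternatives, the replicate block among them. The authors' deposited table gives Tet2 a log2 difference of 1.01 with an adjusted p of 0.0363, which passes 0.05. Dnmt3b was 8.64 and 5.34 against 2.91 and 5.34 (log2 0.65 ± 0.34, adjusted p = 0.167). Over 13 alternatives its log2 difference ranged from 0.302 to 0.999 and was never called. Uhrf1 was 46.4 and 53.6 against 57.5 and 63.9 (log2 -0.28 ± 0.14, adjusted p = 0.162). Dnmt1 (25.5 and 27.3 against 24.3 and 32.2), Tet1 (2.09 and 1.53 against 0.856 and 2.20) and Tdg (3.62 and 4.19 against 4.45 and 1.10) overlapped between the groups. Per kilobase, Uhrf1 led in wild type (16.6) and Tet1 was last (0.106).

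**Figure D5:**
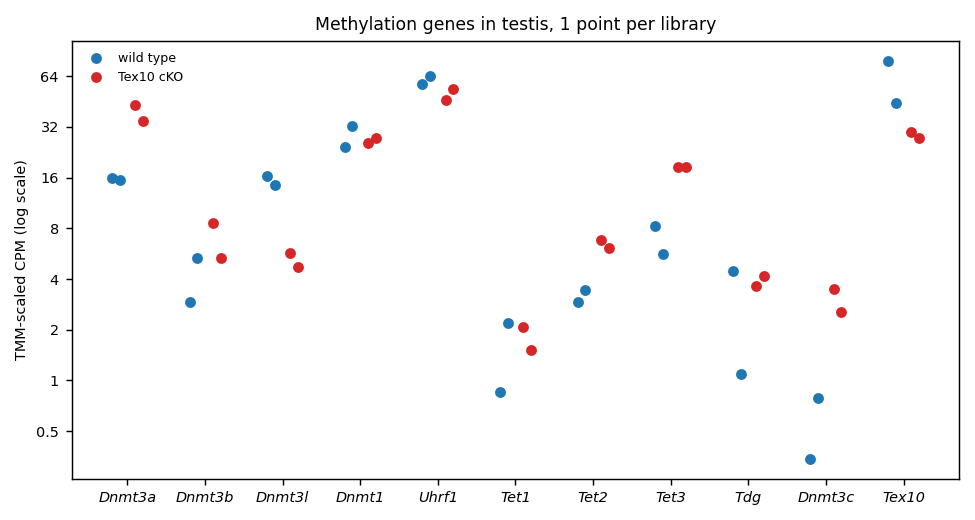
Scaled CPM (log axis) of the 9 members, Dnmt3c and Tex10 in the 4 testis libraries, 1 point each; blue is wild type and red Tex10 cKO. Dnmt3a, Tet3 and Dnmt3c lie higher in both cKO libraries and Dnmt3l and Tex10 lower.

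RNA of cell type markers differed between the testes alongside. All 7 Sertoli markers and all 6 Leydig markers were higher in cKO, with summed levels of 652 to 752 against 247 to 278 and 596 to 983 against 242 to 348. Of 7 spermatid markers 6 were lower (summed 12713 to 13232 against 17255 to 19664), 3 of 7 spermatogonia markers were higher (185 to 207 against 136 to 144). Of 7 spermatocyte markers 1 was higher (Hormad1) and 2 lower (Pgk2 and Ccna1), with a summed level of 1520 to 1602 against 1999 to 2099. Besides these, 4 of 6 fibroblast markers and 3 of 5 tested macrophage markers were higher. No gene of these lists was at 0 in a whole group. Genes on the X chromosome had a median log2 difference of 0.60, against 0.02 on the autosomes. The part of these markers' cell types in the members' differences was not tested.

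Among the testis partners 13 of 43 tested were higher and 4 lower (median 0.33). Ahcy, which clears the by-product of methylation, was 11.6 and 11.2 in cKO and 4.45 and 1.41 in wild type (log2 1.77 ± 0.36, adjusted p = 0.00276 with limma). Ehmt1, a histone methyltransferase, was 13.2 and 15.8 against 4.62 and 7.06 (log2 1.198 ± 0.27, adjusted p = 0.00473). Lig3, a ligase of base excision repair, was 161 and 163 against 240 and 291 (log2 -0.70 ± 0.12, adjusted p = 0.00114). Zfp57, which protects imprints, was 30.8 and 31.4 against 45.0 and 47.9 (log2 -0.56 ± 0.15, adjusted p = 0.0116). Of the 18 methylation-silenced germline genes 3 were higher and 2 lower; Dazl was 195 and 189 against 109 and 101 (log2 0.87 ± 0.12, adjusted p = 0.000222). Tex13b was the other higher gene named by size (log2 1.03 ± 0.26), and Tdrkh (-0.54 ± 0.15) and Tuba3a (-0.43 ± 0.13) were the lower ones.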

How the data were processed

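The members and all gene lists were chosen with earlier results of these data known. The deposited signal values are CPM scaled with TMM by the authors, as the file headers and values show; Bowtie2 2.3.4.3, SAMtools 1.9, HTSeq 0.11.2, edgeR 3.26.8 and mm10 are named in the submitters' processing notes. The deposited tables also give the authors' log2 fold changes, p-values and adjusted p-values. Counting strand and annotation are not given in the sources used here. Per the labels' protocols, the overexpression libraries used another kit (TECAN Universal Plus) than the rest (NuGEN Ovation).

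Each table was tested alone with limma 3.58.1 (R 4.3.3) with a variance trend on log2(value + 1), in genes with a mean of at least 1, at an adjusted p of 0.05; stage comparisons of the overexpression table had the line as a block. Library depth and the value of 1 read came from the steps of low values: 100% of values were whole reads within 0.02. For day 4 DMSO replicate 2 a step of 0.0996 cannot be told apart from rounding to 0.1. edgeR 4.0.16 and DESeq2 1.42.0 ran on these reads as alternatives; edgeR called 5033 genes for dTAG13 at day 2, 6407 at day 4, 1285 for clones against vector and 5904 in testis. The number of values per group limits precision, and for values at 3 reads or fewer counting error is the least error. Scripts were tested on simulated data. Unmapped columns numbered 0.

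Partner and germline genes were named as up to 2 of the largest called changes per direction and comparison, with no overlap between groups and a table mean of at least 5; each has values in at least 1 such comparison. Dnmt3c and Gadd45a with dTAG13 are outside this rule. All 9 members were named. For the nearest courses, up to 2 genes a member are given, and 1 is not reported here.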

Additional observations from a re-analysis of the deposited data

Results flagged for a closer look

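The day 2 change from EpiLC pointed in opposite directions in all libraries of both cell experiments for 2 members. Dnmt1 was -0.338 (log2) in the degron control cells and 0.108 in the overexpression lines, and Tet1 was -0.094 and 0.405. On one side of each the change was not called: Dnmt1 in the overexpression lines (adjusted p = 0.325 with limma) and Tet1 in the degron control cells (adjusted p = 0.588). The Dnmt1 call in the degron control cells held in 3 of 14 alternatives, and Tet1 there was 0.11 with quantile normalization. The difference between the tables was not tested, since they were scaled separately and made with different kits. Over this step 26.2% of all genes were called in the degron control cells and 46.3% in the overexpression lines. The share of all genes that moved in opposite directions is not given here, so the count of 2 says little about the members.

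For 3 members, every library moved one way with dTAG13 and the other way in Tex10 cKO testis. Dnmt3a was -0.396 at day 2 and -0.674 at day 4 with dTAG13, and 1.254 in testis. Dnmt3l was 0.986 and 1.721, and -1.4 in testis. Tet2 was -0.595 and -0.604, and 0.837 in testis, where it was not called. These differences between experiments were not tested. In these comparisons 33.6% (dTAG13, day 2), 41.8% (dTAG13, day 4) and 29.1% (testis) of all genes were called. How many of them moved in opposite directions is not given here, so this count says little about the members.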

How the results depend on the processing

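Of 50 called member differences, 42 stayed called in every alternative run and none changed sign. Of the 8 exceptions, 6 are given with their values above. The others were the day 4 to day 6 rises of Dnmt3a and Dnmt3l, each lost with no variance trend. Where the cause of a change is not evident from fewer genes or libraries, it was not tested. Depth limits Tdg, Dnmt3c and the testis values of Tet1, which rest on few reads.

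Genes called moved by over 1.5 times as follows. For day 2 to day 4 with DMSO they were 341 with no filter on low values, 445 with no variance trend and 551 with only these groups fitted, and 2 members were called in each. The test between days of the dTAG13 response called 16 with no filter and 0 with no variance trend by limma (1898 genes at an unadjusted p under 0.05; edgeR 248, DESeq2 281). With no variance trend, counts were 2238 (overexpression day 2 to 4), 276 (day 4 to 6, 0 members), 431 (clones against vector, 0 members), 2135 (testis) and 0 for the clone effect from EpiLC to day 6 by limma (1302 at an unadjusted p under 0.05; edgeR 93). That last test called 40 with DESeq2 and 1379 with no filter. With no filter, day 4 to 6 gave 476 and clones against vector 642. Clones against vector gave 772, 673 and 789 genes without day 2, day 4 and day 6, and 2 members with quantile normalization, without day 4 and without EpiLC.

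Leaving out 1 library gave 2496 to 3098 genes for EpiLC to day 2 (DMSO), 425 to 1104 for day 2 to 4 (2 to 4 members), 3797 to 5723 for EpiLC to day 4, 3603 to 4208 for dTAG13 at day 2 and 44 to 366 between days (0 to 1 members). In the overexpression table, leaving out a clone gave 1564 to 1614 (day 2 to 4), 255 to 306 (day 4 to 6) and 413 to 425 (clones against vector, 0 to 1 members; the lone clone is assumed to vary like the rest). Testis gave 3148 to 6085. The clone effect from EpiLC to day 6 without a clone was not run, as no residual degrees of freedom remain.

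Sign changes were limited to differences that were not called, but for Tuba3a in testis (0.025 with quantile normalization). With quantile normalization Tet1 was 0.11 at day 2 and 0.176 at day 4 against EpiLC, Tet3 0.049 for dTAG13 at day 4, Dnmt1 -0.009 for day 4 to 6 and Tdg 0.042 for clones against vector. With median-ratio scaling, edgeR and DESeq2, Uhrf1 from day 2 to day 4 was -0.006, -0.005 and -0.007, and Tet3 for dTAG13 at day 4 was 0.027, 0.023 and 0.028. Tdg summed with its copies, an alternative chosen after seeing the data, was -0.388, -0.216 and -0.604 for EpiLC to day 2, day 2 to 4 and EpiLC to day 4 with DMSO, -0.154 for day 2 to 4 in the overexpression table and 0.026 for clones against vector. Without the vector line Tdg was 0.049 from EpiLC to day 6. For clones against vector, Dnmt1 was 0.005 without EpiLC and 0.043 without day 2, Tet2 0.08 without EpiLC, and Tdg 0.013 and 0.068 without EpiLC and day 2.

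With 1 library left out, ranges that crossed 0 were, from day 2 to day 4 with DMSO, Dnmt1 -0.08 to 0.363, Uhrf1 -0.027 to 0.095, Tet1 -0.024 to 0.182 and Tet3 -0.18 to 0.139. From EpiLC to day 4 they were Dnmt1 -0.418 to 0.025 and Tet1 -0.117 to 0.088. For dTAG13 at day 4 they were Dnmt3b 0.0 to 0.296 and Tdg -0.486 to 0.081. In the overexpression table they were Tdg -0.175 to 0.109 (day 2 to 4), Dnmt1 -0.082 to 0.02 (day 4 to 6) and -0.032 to 0.014 (EpiLC to day 6), and Tdg -0.131 to 0.096 (clones against vector). In testis they were Dnmt1 -0.277 to 0.114, Tet1 -0.195 to 0.59 and Tdg -0.154 to 1.223.

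Replicate numbers of the degron and testis tables are not said to pair samples, and same-numbered libraries deviated together with r from -0.141 to 0.215. With a replicate block, calls numbered 5507 for dTAG13 at day 2 (main 5577), 6894 at day 4 (main 6945) and 7185 in testis (main 6016). Crossing the numbers for EpiLC against day 4 DMSO, tried after seeing the data, gave 5876 genes and 6 members. Without the block by line, day 4 to day 6 gave 498 genes.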
